A study of Mus musculus with 6 samples.

Results

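This account covers 10 antioxidant genes of mouse lung fibroblasts, read as the rows of a gene count table whose Ensembl identifiers carry the symbols Hmox1, Nqo1, Gclm, Gclc, Txnrd1, Srxn1, Mt1, Mt2, Sod2 and Sod3. All 10 were among the 45706 genes in the table and all 10 passed the filter on low counts, as did 14635 genes in all. The cells were fibroblasts grown out of digested lungs of wild-type mice, left as controls (3 libraries) or given 30 ng/ml of the recombinant mouse protein DKK1 over 24 hours (3 libraries). DKK1 (Dickkopf-1), a secreted Wnt antagonist, acts through the co-receptors LRP5 and LRP6, and the design asks which genes respond to it in culture. The labels give no strain, age or sex, do not say whether the control wells received a vehicle, and number the libraries 1 to 3 in each group without saying whether a number is a separate mouse or culture, so the p-values measure the spread between these libraries only.

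NRF2, the product of Nfe2l2, is a transcription factor that the adaptor KEAP1 marks for destruction until oxidants or electrophiles modify KEAP1. Freed NRF2 pairs with small MAF proteins on antioxidant response elements and drives genes for quinone reduction, glutathione and thioredoxin chemistry and haem breakdown. Metallothioneins are small cysteine-rich proteins that bind zinc and copper and are driven by the zinc-sensing factor MTF1, by glucocorticoids and by inflammatory signals, and superoxide dismutases convert superoxide to hydrogen peroxide in the mitochondrion (SOD2), the cytosol (SOD1) and the extracellular matrix (SOD3).

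Library totals ran from 22.6 M to 34.7 M counts, and the 10 genes held from 551 to 15333 counts in each library. All 10 fibroblast markers on the list were above 3 counts in every library, and their summed level was 18479 to 20246 CPM (counts scaled to a library of 1 M) in control and 17053 to 18983 CPM with DKK1. Of these 0 were called by edgeR without the block (unadjusted p fell under 0.05 for 4), while in the paired fit Pdgfra and Dcn were called higher and 6 lower (Col1a1, Col1a2, Pdgfrb, Thy1, Fn1 and Vim). Among all 14635 tested genes, unadjusted p fell under 0.05 for 1544, and the paired fit called 4.96% higher and 4.46% lower. Markers of other cell types were present at lower levels: the 12 macrophage and leukocyte markers were above 3 counts in every library and summed to 440.2, 508 and 879 CPM in control replicates 1, 2 and 3 and to 496, 536 and 930.2 CPM in the DKK1 replicates of the same numbers. Most of this sum was Lyz2, at 340 to 696 and 370 to 722 CPM, and other members moved in opposite directions. Cd14 was called higher without the block (log2 fold change 0.85, edgeR adjusted p = 0.0028), and in the paired fit Cd14, Marco, Itgam and Adgre1 were called higher (0.85, 1.67, 1.07 and 0.54) and C1qa, Mrc1 and Csf1r lower (-1.33, -0.45 and -0.25); their part in the values below was not tested. Replicate 3 of both groups stood apart, with the most macrophage, epithelial (42.6 and 44.5 CPM against 12.3 to 16.8 CPM), endothelial and mesothelial marker RNA. The 7 smooth muscle and pericyte markers summed to 9004 to 10058 CPM in control and 7694 to 8988 CPM with DKK1, and 1 of them was called lower without the block and 6 in the paired fit; their part in the values below was not tested. The 6 neutrophil markers summed to 0.975 to 1.72 CPM in control and 2.74 to 4.12 CPM with DKK1, without overlap. Most of this was S100a8, a calcium-binding alarmin gene, at 0.798, 0.991 and 1.68 CPM in control and 3.21, 2.56 and 4.03 CPM with DKK1 (log2 fold change 1.49, edgeR adjusted p = 0.0705; paired fit 0.000308). Ly6g and Elane were at 0 counts in every library, and the part of this shift in the values below was not tested. Mitochondrially encoded genes took 1.49% to 1.55% of control counts and 1.63% to 1.70% of DKK1 counts. Because libraries with the same number deviated together from their group means, the tests across genes were run without a block and with one for the replicate number (the paired fit). In RNA from a whole culture, fewer cells of a type and less RNA per cell cannot be told apart.

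After DKK1, Sod2 rose 1.34-fold, Mt2 and Sod3 were 1.30-fold higher, and Mt1 and Nqo1 1.16-fold and 1.19-fold higher; Hmox1, Gclc and Srxn1 were at most 1.08-fold higher. Without the block 1 of the 10 genes, Sod2, was called higher and 0 were called lower (edgeR, quasi-likelihood, Benjamini-Hochberg adjusted p over all tested genes below 0.05), where 0.697% of all tested genes were called higher, 0.198% lower and 0.895% in either direction. In the paired fit 7 were called higher (Sod2, Sod3, Mt1, Mt2, Nqo1, Gclm and Txnrd1) and 0 lower, against 4.96% of all tested genes higher, 4.46% lower and 9.42% in either direction. Among the 5972 genes with at least the mean CPM of Mt2, which had the lowest CPM of the 10 (not scaled for length), 0.921% were called higher without the block and 7.52% in the paired fit. All 10 log2 fold changes were positive, with a median of 0.18, beside a median of -0.00091 over all tested genes. Each of the 10 was higher with DKK1 in all 3 same-numbered pairs, which was true of 22.3% of all tested genes. The groups did not overlap in 4 of the 10 (Gclc, Mt1, Mt2 and Sod2), all higher with DKK1, against 9.40% of all tested genes.

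**Figure D1:**
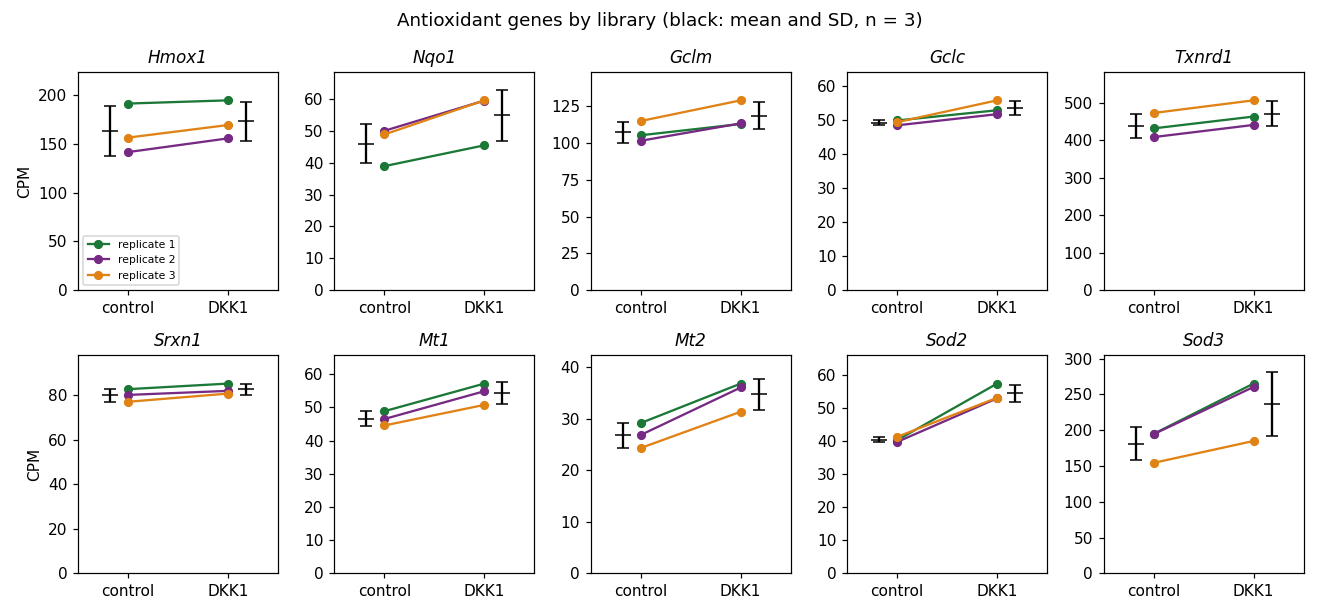
Level of each of the 10 antioxidant genes in CPM (vertical axes from 0) in control and DKK1 libraries. Coloured lines join libraries with the same replicate number and black bars give the mean and SD (n = 3). Each line rises from control to DKK1 in every panel, while for Hmox1 the distance of the replicate 1 line from the others exceeds the rise, and only in Gclc, Mt1, Mt2 and Sod2 do all DKK1 points lie above all control points.

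The superoxide dismutases are described first. Sod2 (ENSMUSG00000006818, chromosome 17, 13006846 to 13040063, GRCm38) encodes the manganese enzyme of the mitochondrial matrix, which inflammatory cytokines are known to induce through NF-kB. Its level was 40.4, 39.8 and 41.4 CPM in control replicates 1, 2 and 3 and 57.5, 53.0 and 53.2 CPM in the DKK1 replicates. The highest control library lay well below the lowest DKK1 library, and the controls lay close together, with an SD of 0.776 CPM. Sod2 rose with a log2 fold change of 0.43 (edgeR, standard error 0.05, adjusted p = 0.00689; paired fit adjusted p = 1.43e-05). It was the only one of the 10 to be called in all 21 alternative fits, which include leaving out each library; without 1 library its adjusted p reached at most 0.0451.

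Sod3 (ENSMUSG00000072941, chromosome 5, 52363791 to 52371418) encodes the secreted copper-zinc enzyme that binds heparan sulphate in the matrix and is abundant in lung. It stood at 195, 194 and 154 CPM in control and at 265, 260.3 and 185 CPM with DKK1. Replicate 3 was the lowest library in both groups, so that its DKK1 value lay below controls 1 and 2 although it was above its own control. The log2 fold change was 0.38 (edgeR, standard error 0.14, adjusted p = 0.365) without the block and 0.38 (SE 0.03, adjusted p = 3.86e-06) in the paired fit. The cytosolic enzyme gene Sod1, which is not one of the 10, stood at 155, 163 and 151 CPM and 153, 156 and 164 CPM, a difference of 0.01 on the log2 scale (edgeR adjusted p = 0.982; paired fit 0.959), and its counts held fractions in all 6 libraries, as reads shared with other loci give.

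Within each library, the ratio of Sod2 to Sod1 was 0.0285, 0.0268 and 0.0299 in control and 0.0411, 0.0371 and 0.0355 with DKK1, per length of transcript. The groups did not overlap, and the mean log2 ratio was 0.42 higher with DKK1 (two-sided exact permutation test, p = 0.1, which is the lowest that 3 against 3 allows; adjusted over 5 ratios 0.25; 0.25 by exact permutation within pairs, the lowest that 3 pairs allow). The ratio of Sod3 to Sod2 was 7.02 ± 1.02 in control and 6.79 ± 1.19 with DKK1 (SD, n = 3 each; exact permutation test p = 0.7, within pairs 0.5). It was lower with DKK1 in 2 of 3 pairs, and leaving out control replicate 1, control replicate 2 or DKK1 replicate 3 turned its sign.

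The metallothionein genes Mt2 and Mt1 lie beside each other on chromosome 8 with 5513 bases and 0 annotated genes between them (Mt2, ENSMUSG00000031762, 94172664 to 94173568; Mt1, ENSMUSG00000031765, 94179082 to 94180327; both on the plus strand). Their promoters are shown because both neighbours were called higher in the paired fit, and the promoter of Sod2 because it was the gene called without the block. The sequences are from RefSeq on GRCm38.p6, run from 250 bases before to 30 bases after the start site, and lie at chr8:94172368-94172647 (Mt2), chr8:94178839-94179118 (Mt1) and chr17:13007589-13007868 (Sod2), all on the plus strand. The Sod2 window lies inside the gene span of GENCODE M21, which begins at 13006846, so the RefSeq start used is downstream of that gene start. Capitals mark the core of the metal response element (TGCACNC or TGCGCNC on either strand) in Mt2 and Mt1, and a match to the NF-kB motif in Sod2.
Mt2: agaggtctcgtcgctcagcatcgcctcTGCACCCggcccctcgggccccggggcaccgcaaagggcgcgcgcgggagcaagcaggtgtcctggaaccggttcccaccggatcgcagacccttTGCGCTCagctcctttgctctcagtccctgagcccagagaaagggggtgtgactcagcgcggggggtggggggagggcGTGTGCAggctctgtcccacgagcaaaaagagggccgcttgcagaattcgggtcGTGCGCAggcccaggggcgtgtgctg
Mt1: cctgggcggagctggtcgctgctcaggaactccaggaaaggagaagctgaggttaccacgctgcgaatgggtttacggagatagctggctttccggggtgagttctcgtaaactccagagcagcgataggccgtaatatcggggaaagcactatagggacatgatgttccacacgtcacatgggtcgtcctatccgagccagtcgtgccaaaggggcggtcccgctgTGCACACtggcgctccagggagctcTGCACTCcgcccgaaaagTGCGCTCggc
Sod2: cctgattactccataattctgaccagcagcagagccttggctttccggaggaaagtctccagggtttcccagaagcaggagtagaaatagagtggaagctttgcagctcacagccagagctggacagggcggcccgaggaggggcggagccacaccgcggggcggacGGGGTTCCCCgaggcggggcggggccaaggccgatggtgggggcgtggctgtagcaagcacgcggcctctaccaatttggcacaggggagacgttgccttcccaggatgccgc
The Mt2 promoter held 4 matches to the metal response core and the Mt1 promoter held 3 in the 300 bases searched (to 50 bases after the start site). Of 32817 RefSeq promoters of this length 25.7% held at least 1 match, 1.97% at least 3 and 0.518% at least 4. Among the other members with a RefSeq promoter, Gclm held 3 such matches, as many as Mt1, and Srxn1 held 1, while Nqo1, Sod2 and the 3 Txnrd1 windows held 0. Mt1 also held 1 match to the glucocorticoid response element motif, found in 0.475% of promoters. Mt2 held a stretch that matches both the antioxidant core TGACNNNGC (12.4% of promoters) and the overlapping AP-1 motif TGANTCA (7.81%), which Srxn1 held at 2 places. The marked 10 bases of Sod2 matched the NF-kB motif on both strands, and 8.46% of promoters held such a match. Each count depends on the start site that RefSeq gives, and matches outside the 300 bases were not searched. The counts therefore do not rank the genes by all the elements they may have. A match of letters is a description of these windows and not a measured binding site.

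Mt2 was found at 29.2, 26.9 and 24.3 CPM in control replicates 1, 2 and 3 and at 36.8, 36.1 and 31.4 CPM in the DKK1 replicates. All DKK1 libraries lay above all controls, with replicate 3 lowest in both groups. The log2 fold change was 0.37 (edgeR, standard error 0.08, adjusted p = 0.111), and Mt2 passed in the paired fit (SE 0.04, adjusted p = 9.77e-05). Mt1 stood at 48.8, 46.5 and 44.5 CPM in control and at 57.2, 54.9 and 50.7 CPM with DKK1, again without overlap and with the libraries in the same order in both groups. Its log2 fold change was 0.22 (edgeR, standard error 0.06, adjusted p = 0.191) and 0.21 in the paired fit (SE 0.04, adjusted p = 0.00166), but with the block in DESeq2 it was not called (adjusted p = 0.104). The gene Mt3 was measured at 1.08 to 1.68 CPM and Mt4 had 0 counts in every library, which allows up to 0.133 CPM in the shallowest.

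The changes of the 2 metallothioneins were compared through their ratio within each library. The ratio of Mt2 to Mt1 per length of transcript was 0.641, 0.621 and 0.587 in control and 0.692, 0.706 and 0.664 with DKK1, higher with DKK1 in 3 of 3 pairs and without overlap between the groups. The mean log2 ratio differed by 0.16 (two-sided exact permutation test, p = 0.1, the lowest possible; adjusted over 5 ratios 0.25; 0.25 by exact permutation within pairs, also the lowest possible). Neither test can pass with 3 libraries a group, so whether the changes differ in size was not settled; the value stayed between 0.12 and 0.19 when each library was left out. The expected counts of both genes were whole numbers in all 6 libraries, so no reads were divided between them. Mt2 overlaps the antisense gene Gm45774, which did not pass the filter on low counts.

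The enzymes of quinone and haem chemistry came next. Nqo1 (ENSMUSG00000003849, chromosome 8, 107388225 to 107403206), the quinone reductase often used as a readout of NRF2, was at 39.0, 50.1 and 48.9 CPM in control and at 45.5, 59.6 and 59.6 CPM with DKK1. Replicate 1 was the low library in both groups, and its DKK1 value lay below controls 2 and 3. The log2 fold change of 0.25 passed the threshold in the paired fit (edgeR, standard error 0.04, adjusted p = 0.000544) and missed it otherwise (SE 0.12, adjusted p = 0.547), where it was 0.144 without control replicate 1. Hmox1 (ENSMUSG00000005413, chromosome 8, 75093621 to 75100589), the inducible haem oxygenase, had replicate 1 highest instead, at 191, 141 and 156 CPM in control and 195, 156 and 169 CPM with DKK1. Its log2 fold change was 0.08 without the block (edgeR, standard error 0.11, adjusted p = 0.875) and 0.09 in the paired fit (SE 0.03, adjusted p = 0.071). Leaving out pair 1 brought Hmox1 under the threshold in the paired fit (edgeR adjusted p = 0.00547), and leaving out control replicate 2 or DKK1 replicate 1 turned its sign without the block.

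Of the 4 glutathione and thioredoxin genes, Gclm and Txnrd1 passed in the paired fit and Gclc and Srxn1 in neither. Gclm (ENSMUSG00000028124, chromosome 3, 122245557 to 122270732) and Gclc (ENSMUSG00000032350, chromosome 9, 77754535 to 77794485) encode the modifier and the catalytic subunit of glutamate-cysteine ligase, the first step of glutathione synthesis. Gclm stood at 105, 102 and 115 CPM in control and at 113, 113 and 129 CPM with DKK1, which is 0.14 higher on the log2 scale (edgeR, standard error 0.06, adjusted p = 0.492; paired fit 0.00625, and 0.107 in that fit without pair 2). With the block in DESeq2, Gclm was not called (adjusted p = 0.176), and without DKK1 replicate 3 its unblocked log2 fold change was 0.076. Its counts held fractions in all 6 libraries, and it overlaps the pseudogene Gm6061 on its own strand and Gm17494 on the other, so its level is uncertain. Gclc stood at 49.9, 48.5 and 49.4 CPM in control and at 52.9, 51.7 and 55.8 CPM with DKK1; although the groups did not overlap, its log2 fold change of 0.11 was called in neither fit (edgeR, standard error 0.04, adjusted p = 0.359; paired fit 0.0888). The ratio of the catalytic to the modifier subunit differed by -0.02 on the log2 scale (exact permutation test p = 0.6, within pairs 0.5), lower with DKK1 in 2 of 3 pairs, with a sign that turned without control replicate 2 or without DKK1 replicate 3.

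Txnrd1 (ENSMUSG00000020250, chromosome 10, 82833951 to 82897712), the cytosolic thioredoxin reductase, was the most abundant of the 10 by CPM, at 432, 409 and 473 CPM in control and at 464, 442 and 507 CPM with DKK1. The rise was nearly equal in the 3 pairs, at 0.10, 0.11 and 0.10 on the log2 scale. In both groups it was smaller than the distance from replicate 3 to the other replicates and larger than that between replicates 1 and 2. Txnrd1 passed in the paired fit (log2 fold change 0.10, SE 0.02, edgeR adjusted p = 0.00413) but not without the block (SE 0.06, adjusted p = 0.653) nor in the paired fit without pair 2 (adjusted p = 0.0888). Without the block its log2 fold change was 0.0453 with DKK1 replicate 3 left out, 0.0529 without control replicate 2 and 0.15 without control replicate 3. Srxn1 (ENSMUSG00000032802, chromosome 2, 152105516 to 152111376), which restores over-oxidised peroxiredoxins, had the smallest change, at 82.6, 80.0 and 76.9 CPM in control and 85.1, 81.8 and 80.6 CPM with DKK1. Its log2 fold change of 0.04 was called in neither fit (edgeR, standard error 0.04, adjusted p = 0.805; paired fit 0.495), and it was 0.00999 without control replicate 3, 0.0186 without DKK1 replicate 1 and 0.0675 without control replicate 1. Txnrd1 overlaps Eid3, Gm38560 and Gm47073, none of which passed the filter on low counts. The ratio of Txnrd1 to Srxn1 was higher by 0.06 on the log2 scale with DKK1 (exact permutation test p = 0.5, within pairs 0.25), in 3 of 3 pairs, and this sign turned without DKK1 replicate 3. Searched with the letters TGACNNNGC, the promoters of Gclm, Srxn1 and 1 of the 3 Txnrd1 starts held 1 match each, and the single Nqo1 window held 0, against 12.4% of all promoters with a match.

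**Figure D2:**
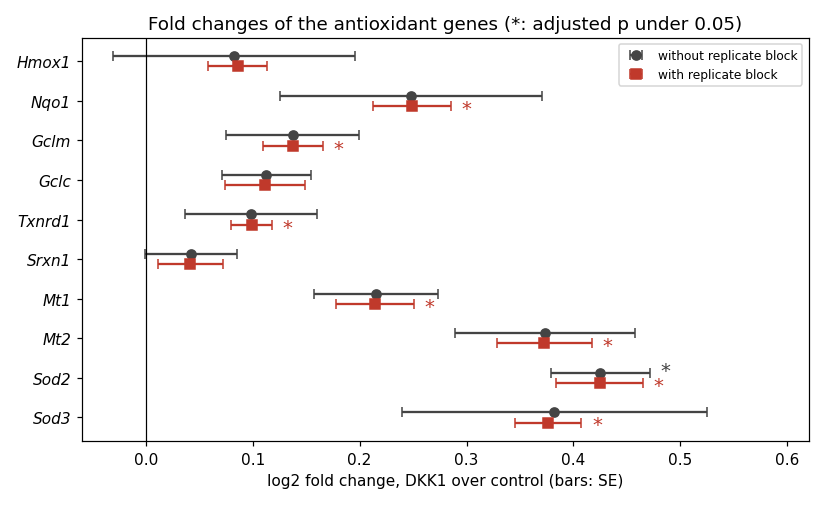
Log2 fold change of each antioxidant gene, DKK1 over control, with its standard error, without (grey circles) and with (red squares) a block for replicate number; asterisks mark adjusted p under 0.05. The estimates nearly coincide between the fits, and the standard errors of Hmox1, Nqo1, Txnrd1 and Sod3 are smaller with the block, from 0.14 to 0.03 for Sod3.

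How much of each gene's variation went with the replicate number and how much with DKK1 differed widely among the 10. Of the variance of log2 CPM over the 6 libraries, DKK1 took 96.4% for Sod2, 76.3% for Mt2, 74.8% for Mt1 and 74.4% for Gclc. It took 46.2% for Sod3, 42.6% for Gclm, 34.8% for Nqo1, 28.5% for Srxn1, 27.2% for Txnrd1 and 7.74% for Hmox1, where the replicate number took 90.1%. With 6 libraries each source takes some share even without an effect, and the replicate number, with more levels, takes more than the group. The shares were not set beside those of all tested genes, so a low share for DKK1 is not evidence of an effect. The replicates were not ordered alike across the genes: Gclm and Txnrd1 were highest in replicate 3 of both groups, Mt1, Mt2, Srxn1 and Sod3 were lowest there, and Hmox1 was highest in replicate 1. Replicate 3 was also the library number with the most RNA from macrophages and other cell types, whose part in these differences was not tested. Without pair 3 the paired fit called the same 7 genes, and without pair 2 it called 5 (Mt1, Mt2, Nqo1, Sod2 and Sod3).

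**Figure D3:**
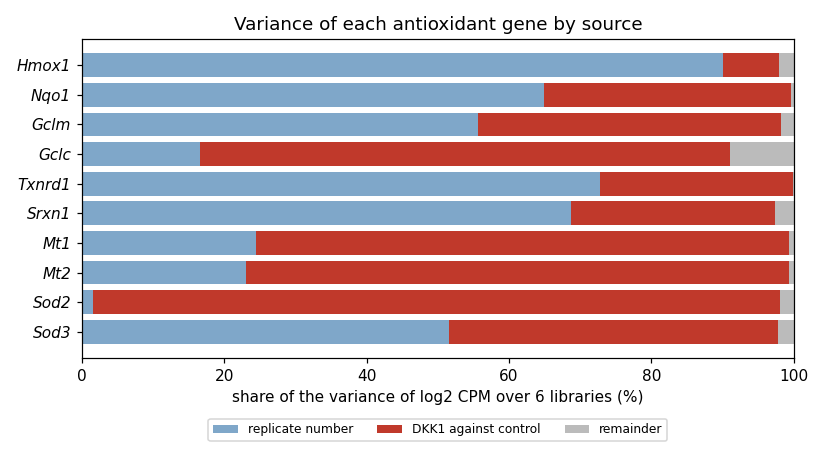
Share of the variance of log2 CPM over the 6 libraries, in percent, that goes with the replicate number (blue), with DKK1 against control (red) and with neither (grey), for each antioxidant gene. Sod2 is almost wholly red at 96.4%, and Hmox1 almost wholly blue at 90.1%.

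Levels can be compared between genes only per length of transcript, given here as CPM per kilobase of the median annotated transcript. Among the 7 genes with a single transcript in the table, Txnrd1 was highest in control at 132 ± 9.81 (SD, n = 3), followed by Mt1 at 84.9 ± 3.92, Mt2 at 52.4 ± 4.73, Sod3 at 48.5 ± 6.22, Nqo1 at 29.6 ± 3.93, Gclc at 14.4 ± 0.213 and Sod2 at 6.91 ± 0.132. Over all 6 libraries the ranges of neighbours in this order did not overlap, except for Mt2 and Sod3, although Mt2 exceeded Sod3 in 6 of 6 libraries. With DKK1, Sod2 was still the lowest, at 9.31 ± 0.431, below Sod1 at 246 ± 8.93. This place of Sod2 rests on its 1 listed transcript of 5861 bases. By CPM alone Sod2 lay above Mt2 in control, with means of 40.5 and 26.8 CPM. The place of the 3 genes with several transcripts depends on the length taken: Srxn1 was at 179 with its median transcript and 28.4 with its longest, Gclm at 122 and 19.2, and Hmox1 at 139 and 104.

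Among the regulators of NRF2, Nfe2l2, the gene of NRF2 itself, rose from 134, 135 and 132 CPM in control to 154, 159 and 151 CPM with DKK1, with no overlap between the groups (log2 fold change 0.21, SE 0.04, edgeR adjusted p = 0.043; paired fit 0.000111). This call was close to the threshold and was kept in only 1 of the 6 fits that left out a library (adjusted p from 0.0457 to 0.174). Keap1 stood at 62.5 ± 2.56 CPM in control and 61.7 ± 1.25 CPM with DKK1, and the repressor gene Bach1 at 48.2 ± 2.72 and 51.2 ± 0.540 CPM; neither was called (edgeR adjusted p = 0.908 and 0.641; paired fit 0.744 and 0.307). Of the 14 regulators tested, 1 was called higher and 0 lower without the block, and 1 higher and 1 lower in the paired fit, the latter being Sqstm1, the autophagy adaptor that binds KEAP1 (log2 fold change -0.13, paired fit adjusted p = 0.00122). Bach2, a related repressor gene, and Cul3, the ubiquitin ligase scaffold that works with KEAP1, were named after their values were seen. Like Bach1, they did not overlap between the groups but were called in neither fit (log2 fold change -0.30 for Bach2 and 0.08 for Cul3; edgeR paired fit adjusted p = 0.126 and 0.0844). The median log2 fold change of the 14 was -0.01. For this list and those below, the shares over all tested genes are 0.697% higher and 0.198% lower without the block. In the paired fit they are 4.96% higher and 4.46% lower. Unadjusted p without the block fell under 0.05 for 1544 of the 14635 tested genes.

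Genes of glutathione supply and transfer included the largest change called without the block on these lists. Slc7a11, the cystine carrier that feeds glutathione synthesis, rose from 10.1, 10.4 and 13.5 CPM to 19.7, 18.6 and 28.1 CPM, which is 0.96 higher on the log2 scale (edgeR, standard error 0.17, adjusted p = 0.0492; paired fit 9.75e-07), called in 2 of the 6 fits that left out a library. Part of its counts were not whole in all 6 libraries. Mgst1, a membrane-bound glutathione transferase, and Glrx, glutaredoxin, rose by log2 fold changes of 0.40 (edgeR adjusted p = 0.0288; paired fit 0.00011) and 0.35 (adjusted p = 0.0492; paired fit 0.000458), each called in 1 of those 6 fits. Of 27 tested genes on this list, 3 were called higher and 0 lower without the block, and 8 higher and 0 lower in the paired fit, with a median of 0.09. On the NADPH list, 3 of 8 genes (G6pdx, Pgd and Taldo1) were called higher in the paired fit, with log2 fold changes of 0.15, 0.14 and 0.12 and adjusted p-values of 0.00345, 0.000591 and 0.00562. They encode enzymes of the pentose phosphate pathway, as do Tkt and Pgls on the same list, which were not called (log2 fold changes 0.03 and -0.03; paired fit adjusted p = 0.436 and 0.78). Without the block 0 of the 8 were called by edgeR, where 3 had an unadjusted p under 0.05.

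Among 18 thioredoxin and peroxiredoxin genes, Prdx5 rose without the block (log2 fold change 0.19, edgeR adjusted p = 0.0431; paired fit 0.000194), a call that did not hold in any of the 6 fits that left out a library (adjusted p from 0.0692 to 0.186). In the paired fit 4 were called higher and 2 lower. These included Prdx1, the cytosolic peroxiredoxin and known NRF2 target, named after its values were seen, at 429, 439 and 450 CPM in control and 500.1, 497 and 560.4 CPM with DKK1 (log2 fold change 0.24, edgeR adjusted p = 0.0731, paired fit 3.65e-05). Msrb1 and Msrb3, which repair oxidised methionine, were the genes called lower in the paired fit, at -0.16 and -0.11. Of the 11 tested genes for superoxide and peroxide removal outside the 10, 0 were called without the block (edgeR; unadjusted p fell under 0.05 for 1) while 1 was called lower in the paired fit, the lipid peroxidase gene Gpx4 (log2 fold change -0.09, adjusted p = 0.0222).

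The list of detoxification, haem and iron genes gave mixed directions. Of 19 tested, 0 were called without the block (edgeR, with unadjusted p under 0.05 for 7), while 4 were called higher and 3 lower in the paired fit. Over all 14635 tested genes, 1544 had an unadjusted p under 0.05, and the paired fit called 4.96% higher and 4.46% lower. Fth1, the ferritin heavy chain, was higher (log2 fold change 0.24, paired fit adjusted p = 1.23e-06) and Ftl1, the light chain, lower (-0.07, adjusted p = 0.03); the counts of both held fractions in 5 of 6 libraries. Nqo2 and Akr1b3 were called higher, at 0.18 and 0.13, and Trib3 and Ephx1 lower, at -0.40 and -0.11.

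Zinc genes were examined beside the metallothioneins. Mtf1, which encodes the zinc sensor, stood at 28.2, 28.9 and 28.7 CPM in control and at 29.3, 28.9 and 30.6 CPM with DKK1, and was not called (log2 fold change 0.04, edgeR adjusted p = 0.819; paired fit 0.68). The exporter gene Slc30a1, a classical MTF1 target, stood at 21.4 to 22.5 CPM and 22.6 to 25.5 CPM. The importer gene Slc39a14, known as a target of interleukin-6 signalling, was called higher in the paired fit (log2 fold change 0.30, adjusted p = 5.44e-05) but not without the block (edgeR adjusted p = 0.0743). Slc39a10 and the rare Slc39a4 were also called higher in the paired fit, at 0.15 and 1.29. In all, 3 of the 16 tested were called higher and 0 lower in the paired fit, with a median of 0.05; without the block edgeR called 0, where 4 had an unadjusted p under 0.05.

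**Figure D4:**
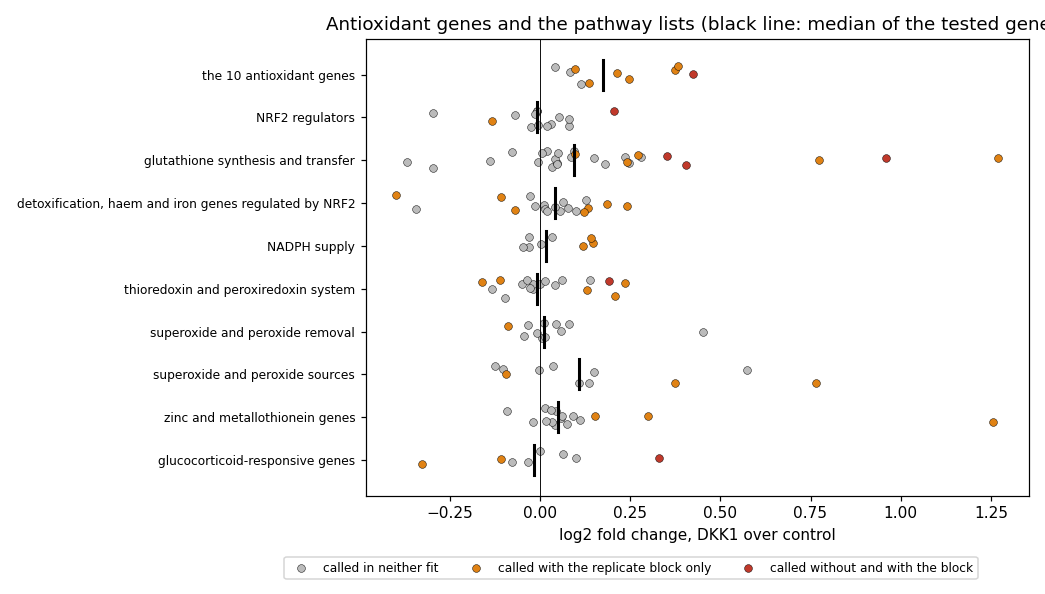
Log2 fold change, DKK1 over control, of each tested gene among the 10 antioxidant genes and the pathway lists; grey points were called in neither fit, orange in the paired fit only and red in both, and black lines are medians. The median of the 10 genes is 0.18, and those of the lists lie between -0.02 and 0.11.

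Over all 9 lists, which hold 132 tested genes, 6 were called higher and 0 lower without the block, where 0.697% and 0.198% of all tested genes were, and 26 higher and 10 lower in the paired fit, where 4.96% and 4.46% were; the median log2 fold change was 0.04. The 6 were Nfe2l2, Slc7a11, Mgst1, Glrx, Prdx5 and Sgk1. Leaving out 1 library gave 0 to 7 calls on these lists, with 0 without control replicate 1, control replicate 2 or DKK1 replicate 2 (edgeR; 28, 29 and 31 genes had an unadjusted p under 0.05).

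For each of the 10, the genes with the most similar profile were sought among 13006 others of at least 1 CPM, by the root mean square difference of log2 CPM over the 6 libraries after centring each gene on its mean. Sod2 was closest to Rsbn1 (0.0227), Spry2 (0.0423) and Odc1 (0.043), the gene for ornithine decarboxylase, each of which was called higher without the block. Sod3 was closest to Gas1 (0.06), Medag (0.0813) and Xdh (0.0837), and Mt2 to Gm17690 (0.045), Mttp (0.0508) and Xdh (0.0525). Mt1 was closest to Casp6 (0.0122), Mmp19 and Irf2bp2, and stood at place 45 among the neighbours of Mt2. Among the 10, the closest pair was Gclm and Txnrd1 (0.032), with Txnrd1 at place 4 among the neighbours of Gclm, whose nearest were Soat1, Sinhcaf and F3. The nearest genes were Egr2, Cyp1b1 and Msi1 for Nqo1, Ccdc106, Foxf2 and Cntfr for Hmox1, Gpbp1l1, Taldo1 and Bclaf1 for Gclc, Atp6v1e1, E2f2 and Coq10b for Txnrd1, and Elf1, Pja1 and Gtf3c1 for Srxn1. With 6 libraries of 2 groups and 13006 candidates, these distances are a description only.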

How the data were processed

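RNA sequencing counts from 3 control and 3 DKK1-treated libraries were used. The authors deposited RSEM expected counts per gene, unscaled; from 9.62% to 10.6% of the values in a library were not whole. Per the submitters' processing notes, the tools were STAR, RSEM and edgeR 4.2.1 and the build GRCm38 (mm10); strandedness and annotation release are not given in the sources used here, and genes that overlap on opposite strands may share reads. Symbols were matched by Ensembl identifier for 45143 of 45706 genes.

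Expected counts were rounded and genes kept by filterByExpr (minimum count 10). The 3 DKK1 libraries were compared with the 3 controls in R 4.3.3 by edgeR 4.0.16 (TMM scaling, quasi-likelihood test, two-sided) with group as the only term, Benjamini-Hochberg adjustment over 14635 genes, and a call at adjusted p under 0.05. The procedure was tested on simulated data without a replicate effect and with changes larger than those of the 10 genes. That test therefore covers neither paired libraries nor changes as small as these. Standard errors are the absolute log2 fold change over the square root of F. CPM use whole library totals. A floor of 3 counts equals 0.0864 to 0.133 CPM; floors cover counting error only. Transcript lengths came from GENCODE M21, and promoters (250 bases before to 50 after the start) from RefSeq, GRCm38.p6, which held 7 of the 10 genes.

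Deviations of same-numbered libraries from their group means correlated at 0.35, 0.33 and 0.50 across genes (log2 of CPM plus 0.5), so the numbers in the titles were taken to pair the libraries, and the fit with the replicate number as a block was run beside the one without it; ratios within a library were tested by exact permutation over libraries and within pairs. No 2 libraries of a group were copies, with chi-square values of 5.19 to 8.14 per gene between them. Alternatives were other scalings, filters and tools (DESeq2 1.42.0, limma 3.58.1), unrounded counts, a minimum of 1.5-fold, another transcript length and leaving out each library; removal of GC and length trends, leaving out pairs, the block in other tools and the test of ratios within pairs were added after seeing the data.

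The genes, lists and tests were chosen with earlier results of these data known. Named genes are the 10, Nfe2l2, Keap1, Bach1, Mtf1 and Sod1, up to 3 genes per direction and list with the largest change among called genes of at least 1 CPM (in the paired fit where edgeR called none without it), and the 3 nearest profiles of each gene; other genes were named after their values were seen.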

Additional observations from a re-analysis of the deposited data

How the results depend on the processing

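Sod2 kept its direction and its call in all 21 alternative fits, but its change is smaller than an added minimum of 1.5-fold. The number of the 10 genes called, 1 without the block, was also 1 in each fit that left out 1 library, 2 without a low-count filter and in DESeq2 (Mt2 added; adjusted p = 0.01 and 0.0182), and 0 with a minimum of 1.5-fold, where 48 genes were called in all. It was 7 with the replicate block, 7 with the block in limma-voom, 7 with the block after removal of GC and length trends, 5 with the block in DESeq2, and 8, 5 and 7 with the block and pair 1, 2 or 3 left out; the cause of the gap between edgeR and DESeq2 was not tested. Calls over all genes went from 131 to 329 without a filter, 289 in DESeq2, 1379 with the block, 1376 with the block and the trend removed, 551 and 1391 with the block in DESeq2 and limma-voom, 36 to 139 without 1 library, and 612, 1059 and 1312 with the block and pair 2, 3 or 1 left out. The share called higher fell from 77.9% to 52.6% with the block. Calls on the pathway lists went from 6 to 12 without a filter, 11 in DESeq2, 3 with the GC and length trend removed, 36 with the block (33 with the trend also removed, 18 in DESeq2, 36 in limma-voom), 0 to 7 without 1 library and 18, 28 and 32 with the block and pair 2, 3 or 1 left out. The cause of these shifts was not tested. Fits that left libraries out also had fewer samples, and the part of this was not tested either.

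Signs turned only for Hmox1, to -0.00967 without control replicate 2 and -0.0118 without DKK1 replicate 1 (up to 0.213 over the fits without 1 library), and for 3 within-library ratios. Leaving out 1 library gave differences of -0.0727 to 0.00815 for Gclc to Gclm, -0.0151 to 0.14 for Txnrd1 to Srxn1 and -0.18 to 0.0976 for Sod3 to Sod2, while Mt2 to Mt1 and Sod2 to Sod1 kept theirs. Among the other 9 genes, leaving out 1 library moved the unblocked log2 fold change by over 1.5 times for Nqo1 (0.144 to 0.366), Gclm (0.076 to 0.182), Txnrd1 (0.0453 to 0.15) and Srxn1 (0.00999 to 0.0675). By means over all 6 libraries, the highest level per length over the lowest was 22.4-fold among the 10 genes and 16.8-fold with the longest transcripts. The 10 genes had at least 551 counts in each library, and the effect of depth on their calls was not tested.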

Other observations

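Sources of superoxide and peroxide were also measured. Of 11 tested genes 0 were called without the block (edgeR, with unadjusted p under 0.05 for 2), while 2 were called higher and 1 lower in the paired fit. Over all 14635 tested genes, 1544 had an unadjusted p under 0.05, and the paired fit called 4.96% higher and 4.46% lower. Xdh, which encodes xanthine dehydrogenase, stood at 63.4, 64.9 and 54.5 CPM in control and at 83.7, 84.8 and 69.3 CPM with DKK1 (log2 fold change 0.37 in the paired fit, adjusted p = 6.08e-06), with no overlap between the groups. Cybb, the catalytic subunit of the phagocyte NADPH oxidase, stood at 17.2, 20.9 and 33.3 CPM and at 31.9, 34.2 and 56.2 CPM (log2 fold change 0.76, edgeR adjusted p = 0.329 without the block; paired fit adjusted p = 3.17e-07). Its highest library in each group was replicate 3, as was that of the summed macrophage markers, of which 1 of 12 was called higher without the block, and 4 higher and 3 lower with it; their part in the Cybb values was not tested. Nox4, the oxidase gene best known in fibroblasts, stood at 28.6 to 39.6 CPM in control and 26.9 to 33.2 CPM with DKK1 and was called in neither fit. Lox, the matrix crosslinking oxidase, was called lower in the paired fit (log2 fold change -0.09, adjusted p = 0.00546).

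Genes responsive to glucocorticoids, which also act on metallothionein genes, did not share a direction. Sgk1 rose without the block (log2 fold change 0.33, edgeR adjusted p = 0.0278; paired fit 7.3e-07) and was called in 2 of the 6 fits that left out a library. Tsc22d3, the glucocorticoid-induced leucine zipper gene, stood at 17.4 ± 0.515 CPM in control and 14.0 ± 1.03 CPM with DKK1 (SD, n = 3 each), and was called lower in the paired fit (adjusted p = 0.00756), as was the receptor gene Nr3c1 (log2 fold change -0.11, adjusted p = 0.0249). The other 5 tested genes of this list were called in neither fit.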
